A study of Mus musculus with 12 samples.

Results

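The NR4A orphan nuclear receptors are encoded in the mouse by 3 genes, *Nr4a1*, *Nr4a2* and *Nr4a3*, which were taken by gene symbol from the 52636 genes counted in each cell type. RNA was sequenced from neutrophils and from monocyte-derived macrophages of C57BL/6 J mice aged 8 to 12 weeks, with 3 libraries in each of 4 groups and 12 libraries in total. Neutrophils enriched from bone marrow were treated for 4 h with saline (PBS) or with 1 nM calcitonin gene-related peptide (CGRP), a neuropeptide released by nociceptive sensory neurons. Bone marrow monocytes were first kept for 3 days in 10 ng/ml M-CSF, a growth factor that drives macrophage differentiation, and then received the same treatments, and their labels read monocyte/macrophage. The culture medium and the time in culture differed between the cell types. In comparisons between them, these cannot be told apart from cell type. No group carried a mutant allele or a transgene. The sources used here do not say whether the 3 libraries of a group came from separate mice, so that the p-values measure the spread between libraries, which may be technical.

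NR4A receptors are transcription factors of the nuclear receptor superfamily that have no known classical ligand, so that their activity follows mainly from how much of them is made. Their genes are immediate-early genes, switched on within minutes to hours by signals such as cAMP, partly through the transcription factor CREB and its coactivators, and the receptors bind DNA alone, as dimers or, for *Nr4a1* and *Nr4a2*, with retinoid X receptors. The CGRP receptor raises cAMP through a stimulatory G protein, and in the myeloid lineage *Nr4a1* is known for its requirement in patrolling Ly6C-low monocytes and for restraining inflammatory gene expression in macrophages.

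In GRCm38 (GENCODE M21), *Nr4a1* (ENSMUSG00000023034) lies on the plus strand at chr15:101254269-101274795 and is annotated with 4 transcripts. *Nr4a2* (ENSMUSG00000026826) lies on the minus strand at chr2:57106830-57124003 with 6 transcripts, and *Nr4a3* (ENSMUSG00000028341) on the plus strand at chr4:48045153-48086447 with 4. Each has up to 8 exons in a transcript. No annotated gene overlaps any of the 3 on either strand. Of the 31-base sequences in their exons, 0% for *Nr4a1*, 0.268% for *Nr4a2* and 0.468% for *Nr4a3* also occur in another gene, and none do in the last 500 bases, the part next to the poly-A tail at which the libraries were primed.

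The promoters of the family are shown because CREB binds the cAMP response element (CRE) and its short form, TGACG, and CREB-driven transcription is a known route from cAMP to these genes. The sequences were taken from RefSeq (GRCm38.p6), and in each the short CRE motif is in capitals, as TGACG on the gene's strand or as CGTCA on the opposite one. The 250 bases before the *Nr4a1* start (chr15:101266596-101266845, plus strand) lie within an intron of a longer annotated transcript, those of *Nr4a2* (chr2:57124004-57124253, minus strand) lie before its most distal start, and for *Nr4a3* (chr4:48045055-48045152, plus strand) the 98 bases outside annotated exons are given.
Nr4a1: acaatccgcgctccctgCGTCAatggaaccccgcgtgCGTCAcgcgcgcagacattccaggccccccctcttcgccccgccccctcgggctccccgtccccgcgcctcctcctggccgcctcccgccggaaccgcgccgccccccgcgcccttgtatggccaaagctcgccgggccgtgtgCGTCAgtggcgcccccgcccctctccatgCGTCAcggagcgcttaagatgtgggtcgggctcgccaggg
Nr4a2: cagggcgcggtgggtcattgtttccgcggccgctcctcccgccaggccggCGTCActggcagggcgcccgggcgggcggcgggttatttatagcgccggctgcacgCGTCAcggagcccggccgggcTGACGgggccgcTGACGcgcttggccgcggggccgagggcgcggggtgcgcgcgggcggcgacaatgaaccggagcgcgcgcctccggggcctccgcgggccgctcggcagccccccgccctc
Nr4a3: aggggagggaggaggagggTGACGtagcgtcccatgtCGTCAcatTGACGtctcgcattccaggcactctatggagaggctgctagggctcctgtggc
In the full window of 300 bases, 250 before and 50 after the start, each of the 3 genes held 4 short CRE motifs. A window with at least 4 was found for 76 of 32851 RefSeq promoters (0.231%), and one with at least 1 for 20.8%. Counted from the start, the motifs of *Nr4a1* stood at −233, −213, −69 and −40 and those of *Nr4a2* at −200, −144, −123 and −111. In *Nr4a3* they stood at −231, −213, −205 and −147, the last of them inside an annotated exon and therefore not printed. The full CRE, TGACGTCA, was in 1.79% of all windows and in none of the 3, and the same held for the NBRE, the site AAAGGTCA that an NR4A monomer binds, in 1.51% of windows. These are matches of letters in the windows, and binding was not measured.

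**Figure D1:**
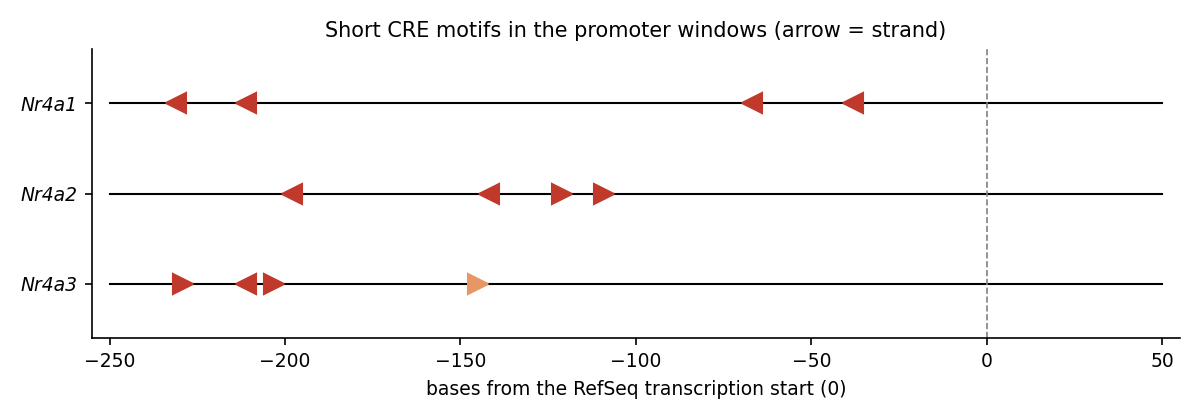
Positions of the short CRE motif (TGACG or CGTCA) in the promoter window of each NR4A gene. The horizontal axis is the distance in bases from the RefSeq start, an arrow pointing right is a motif on the gene's strand and one pointing left a motif on the opposite strand, and the paler arrow lies in an annotated exon. Each window holds 4 motifs, all of them upstream of the start.

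The libraries held between 2002559 and 3631989 counts, so that the floor of 3 counts corresponded to between 0.826 and 1.5 CPM, the count relative to the library total. Levels below are CPM scaled by TMM over the 12 libraries. The labelled cell types were checked by their markers. Neutrophil markers, led by the calprotectin gene *S100a8*, summed to between 160400 and 240500 CPM in the neutrophil libraries and to between 306 and 448.5 CPM in the macrophage libraries. Monocyte and macrophage markers summed to between 11780 and 14270 CPM in macrophages, led by the complement gene *C1qb*, and to between 1228 and 1499 CPM in neutrophils, led by *Ms4a6c*.

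*Nr4a2* (NURR1) was the member that rose in both cell types, about 2.8-fold in neutrophils and about 19-fold in macrophages. *Nr4a1* (NUR77) rose about 2-fold in macrophages and did not pass the test in neutrophils, where it was the most abundant member with PBS. *Nr4a3* (NOR1) was close to the floor in every group and was left out by the filter on low counts. In bulk RNA, fewer cells of a type and less RNA per cell cannot be told apart, which applies to each level below.

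*Nr4a2* had 28, 28 and 23 counts in the PBS-treated neutrophil libraries (8.75, 8.56 and 8.25 CPM). It had 67, 89 and 54 counts in the CGRP-treated ones (21.7, 26.0 and 23.6 CPM). All 3 CGRP libraries lay above all 3 PBS libraries, and the PBS libraries lay within 1 CPM of each other. The mean was 8.52 ± 0.251 CPM with PBS and 23.7 ± 2.15 CPM with CGRP (SD, n = 3). The log2 fold change was 1.47 (SE 0.22, 95% interval 1.02 to 1.92, limma-voom adjusted p = 0.000279), a fold change of 2.77. Of the 9819 genes tested in neutrophils, 2.53% passed the same threshold of 0.05, 1.51% with a higher and 1.02% with a lower level, and 8.22% had CGRP libraries that all lay above the PBS libraries. Ordered from the largest rise down, *Nr4a2* was 21st of the 9819.

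In macrophages, *Nr4a2* had 4, 7 and 11 counts with PBS (1.14, 2.09 and 3.94 CPM). With CGRP it had 131, 117 and 75 counts (40.9, 43.1 and 37.6 CPM). The lowest CGRP library thus lay far above the highest PBS library. The lowest PBS library, at 4 counts, was near the floor of 3 counts. The mean was 2.39 ± 1.42 CPM with PBS and 40.5 ± 2.75 CPM with CGRP (SD, n = 3), and the log2 fold change was 4.22 (SE 0.39, 95% interval 3.39 to 5.04, limma-voom adjusted p = 3.38e-06), a fold change of 18.6 with a 95% interval of 10.5 to 32.9. In macrophages 7.43% of the 9393 genes tested passed the threshold, 3.46% with a higher and 3.97% with a lower level, and in 11.6% the CGRP libraries all lay above the PBS libraries. Only 2 genes had a larger rise on the log2 scale. *Nr4a2* passed the filter in macrophages through its CGRP libraries, since 1 of the PBS libraries reached the 3.36 CPM that the filter required in 3 libraries. Without the filter, the log2 fold change was 4.19 (limma-voom adjusted p = 4.27e-11).

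**Figure D2:**
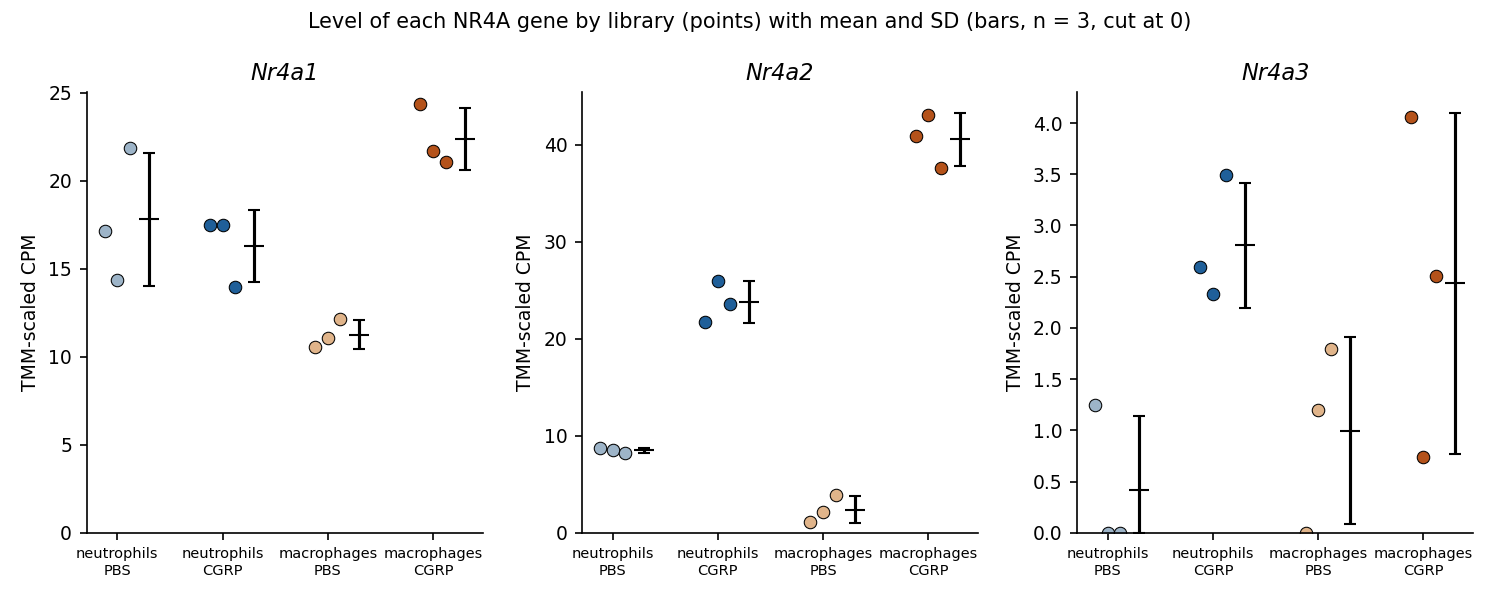
Level of each NR4A gene, in TMM-scaled CPM on linear axes that start at 0, by cell type and treatment. Each point is 1 library, and the bars beside the points give the mean and SD (n = 3). *Nr4a2* is separated between PBS and CGRP in both cell types, *Nr4a1* in macrophages, and *Nr4a3* lies below 5 CPM in every library.

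*Nr4a1* had 55, 47 and 61 counts in PBS-treated neutrophils (17.2, 14.4 and 21.9 CPM) and 54, 60 and 32 counts in CGRP-treated ones (17.5, 17.5 and 14.0 CPM). The groups overlapped, and the highest and the lowest of the 6 values were the third PBS and the third CGRP library. The means were 17.8 ± 3.80 and 16.3 ± 2.04 CPM (SD, n = 3). The log2 fold change was −0.06 (SE 0.21, 95% interval −0.49 to 0.37, limma-voom adjusted p = 0.947), an interval whose upper bound is a 1.29-fold rise. The sign turned with library totals in place of TMM scaling (0.0024), without the third PBS library (0.084) and without the third CGRP library (0.017), and the value was −0.22 without the second PBS library. None of these passed the test.

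In macrophages, *Nr4a1* had 37, 37 and 34 counts with PBS (10.6, 11.1 and 12.2 CPM) and 78, 59 and 42 counts with CGRP (24.4, 21.7 and 21.1 CPM). The groups did not overlap, and the PBS libraries differed from each other by less than 2 CPM. The means were 11.3 ± 0.823 and 22.4 ± 1.75 CPM (SD, n = 3), and the log2 fold change was 1.00 (SE 0.22, 95% interval 0.53 to 1.47, limma-voom adjusted p = 0.00996), with a fold change between 1.45 and 2.77 at the bounds of the interval. Ordered from the largest rise down, this was 244th of 9393 genes. The call was lost without the first PBS library of the macrophages, where the log2 fold change was 0.96 (limma-voom adjusted p = 0.0669) and 347 genes passed in place of 698.

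*Nr4a3* had 4, 0 and 0 counts in PBS-treated neutrophils and 8 counts in each of the 3 CGRP-treated libraries. The levels were 1.25, 0 and 0 CPM with PBS and 2.59, 2.34 and 3.49 CPM with CGRP, where a count of 0 allows up to 0.826 and 1.10 CPM of the library total in the respective libraries. The CGRP libraries all lay above the PBS libraries, on very few counts. Summed over libraries, the CGRP-to-PBS ratio was 6.31 with a 95% interval of 2.17 to 25.0 that covers counting error only (24 against 4 counts), and the exact two-sided permutation test gave p = 0.1, the smallest that 3 against 3 libraries allow. In a fit without a filter on low counts, chosen after seeing the data, the log2 fold change was 3.10 (SE 0.66, limma-voom adjusted p = 0.00283 over 20348 genes). This call was lost without the second or the third PBS library, the libraries at 0, with log2 fold changes of 2.51 and 2.63 (limma-voom adjusted p = 0.109 and 0.098), and the value was 4.12 without the first. Also without the filter, edgeR's quasi-likelihood test gave 2.57 (adjusted p = 0.043), and DESeq2 gave no adjusted p for *Nr4a3* in neutrophils.

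In macrophages, *Nr4a3* had 0, 4 and 5 counts with PBS and 13, 2 and 5 counts with CGRP (0, 1.20 and 1.79 CPM, then 4.06, 0.737 and 2.51 CPM). The groups overlapped, and the highest value came from the first CGRP library. The ratio of summed counts was 2.71 (95% interval 1.18 to 6.75, counting error only, 20 against 9 counts), with an exact two-sided permutation p of 0.3. Without a filter, the log2 fold change was 1.63 (SE 0.75, limma-voom adjusted p = 0.299), and it was 0.46 without the first PBS library.

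**Figure D3:**
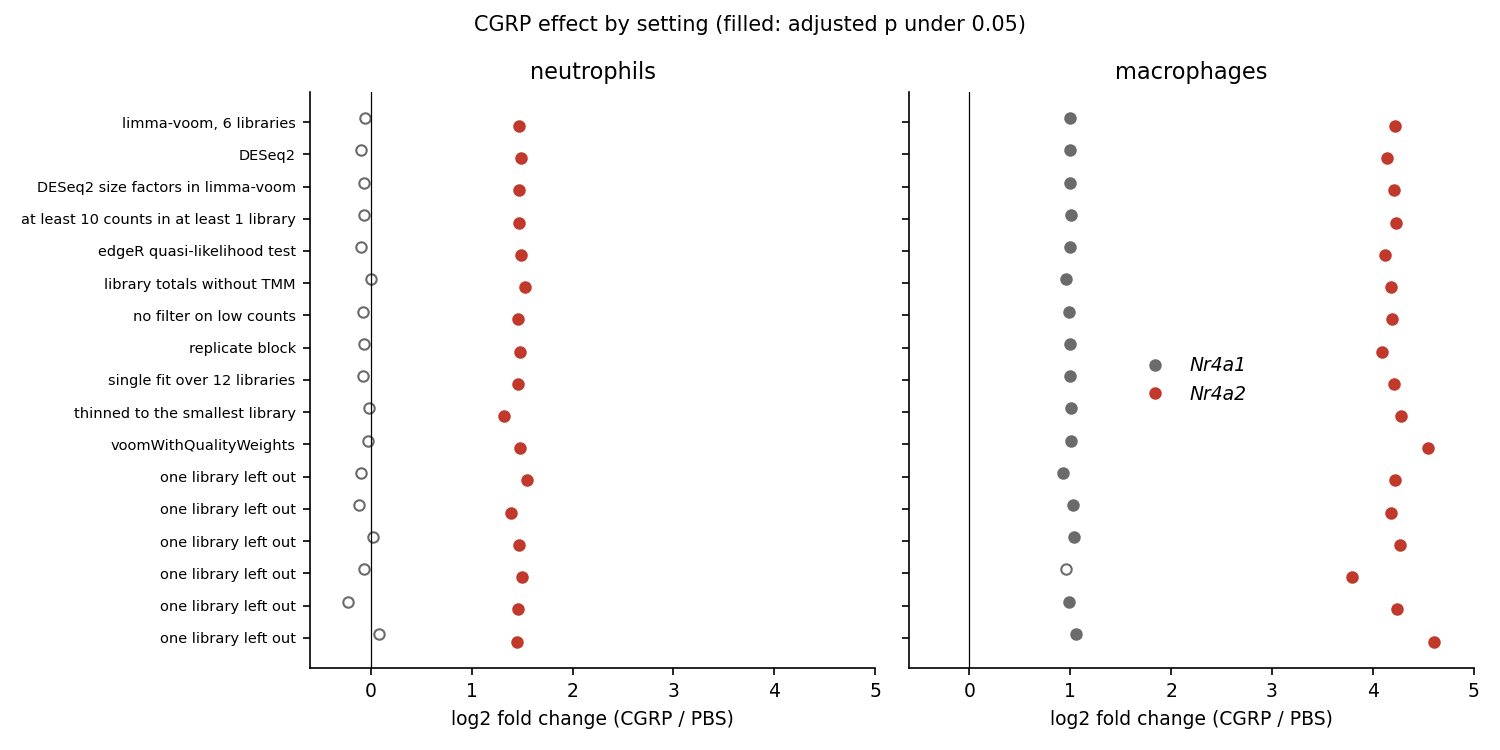
log2 fold change of *Nr4a1* and *Nr4a2* (CGRP over PBS, horizontal axis) in each cell type under each setting of the processing (rows). Filled points have an adjusted p under 0.05. *Nr4a2* passes in every row of both panels, *Nr4a1* in no row of the neutrophils and in every row but 1 of the macrophages, the row in which the first PBS library is left out.

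The effect of CGRP on *Nr4a2* was larger in macrophages than in neutrophils. In a single fit over the 12 libraries, the macrophage effect exceeded the neutrophil effect by 2.75 on the log2 scale (SE 0.42, 95% interval 1.88 to 3.62, limma-voom adjusted p = 0.000374), where 2.36% of 10694 genes passed, 1.21% with a larger value in macrophages. For *Nr4a1* the difference was 1.08 (SE 0.29, 95% interval 0.47 to 1.69), with an unadjusted p of 0.00127 in limma-voom and an adjusted p of 0.0526, and so missed the threshold. It passed in 3 of 20 alternatives, among them edgeR's quasi-likelihood test (1.11, adjusted p = 0.0419), and missed in the other 17, among them DESeq2 (adjusted p = 0.0555).

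Between cell types, the order of the *Nr4a2* levels turned with treatment. With PBS, *Nr4a2* was lower in macrophages than in neutrophils by a log2 difference of −1.98 (SE 0.39, limma-voom adjusted p = 9.32e-05). With CGRP, it was higher in macrophages by 0.77 (SE 0.17, limma-voom adjusted p = 0.000433). The levels of *Nr4a2* therefore ran from PBS-treated macrophages through PBS-treated and CGRP-treated neutrophils to CGRP-treated macrophages, and no neighbours in this order overlapped. *Nr4a1* was also lower in PBS-treated macrophages than in PBS-treated neutrophils (log2 difference −0.63, SE 0.22, limma-voom adjusted p = 0.0126), which was lost without the third PBS library of the neutrophils (−0.49, adjusted p = 0.072). With CGRP, its log2 difference was 0.45 (SE 0.20, limma-voom adjusted p = 0.054). In the order of *Nr4a1* levels, CGRP-treated macrophages overlapped with PBS-treated neutrophils, these with CGRP-treated neutrophils, and PBS-treated macrophages lay below all others. Most genes differed between these cell types. Of the 10694 genes, 67.9% passed with PBS, 35.4% lower in macrophages, and 64.7% passed with CGRP, 30.9% higher in macrophages. Markers of other cells also differed between them. The neutrophil libraries held erythroid markers (between 5760 and 7366 CPM summed, most from *Hbb-bs*), mast cell and basophil markers (963.8 to 1184 CPM, most from *Prss34*), B cell markers (648.3 to 751.5 CPM, most from *Ighm*) and eosinophil markers (522.2 to 643 CPM, most from *Prg2*). In macrophages these sums were at most 26.9, 18.8, 145.1 and 12.3 CPM, with *Cd79a*, *Ms4a1*, *Pax5*, *Epx* and *Il5ra* at 0 in every library. The platelet marker sum was higher in macrophages (629.5 to 974.7 CPM) than in neutrophils (127 to 193.7 CPM), most of it from *Pf4* (617.9 to 971.1 against 107.4 to 161.5 CPM). The dendritic cell marker sum was also higher (152.6 to 195.3 against 50.5 to 63.6 CPM), most of it in macrophages from *Bst2* (146.5 to 191 against 28.9 to 37.3 CPM). Without *Pf4* and *Bst2*, what remained of each sum was lower in macrophages than in neutrophils. T and NK cell markers were at most 1.56 CPM in macrophages and between 85.5 and 134.2 CPM in neutrophils, led by *Nkg7*. The part of these other cells in the levels of the NR4A genes was not tested. Within a cell type, the genes of the marker lists that passed the test between CGRP and PBS were *Ccr2*, lower in both, and *Cx3cr1*, lower in macrophages. Of the 9 marker lists, the summed levels of 4 in macrophages and 3 in neutrophils did not overlap between treatments. Among single genes tested, this held for 11.6% higher and 12.5% lower in macrophages and for 8.22% higher and 9.37% lower in neutrophils. These are shares of single genes and cannot serve as a background for sums over lists. In neutrophils, monocyte and macrophage markers were at 1483 to 1499 CPM with PBS and 1228 to 1423 CPM with CGRP, B cell markers at 714.1 to 751.5 and 648.3 to 675.4 CPM, and T and NK cell markers at 114.6 to 134.2 and 85.5 to 112.3 CPM. In macrophages, neutrophil markers were at 306 to 397.3 CPM with PBS and 421.8 to 448.5 CPM with CGRP, and monocyte and macrophage markers at 11780 to 12330 and 12520 to 14270 CPM. B cell markers were at 120.4 to 145.1 CPM with PBS and 102.7 to 119.9 CPM with CGRP in macrophages, and eosinophil markers at 9.67 to 12.3 and 6.52 to 9.06 CPM. Their part in the CGRP effects on the NR4A genes was not tested.

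Because the members moved unequally, the make-up of the family changed. As a share of the summed NR4A counts, *Nr4a1* was 63.2, 62.7 and 72.6% in PBS-treated neutrophils and 41.9, 38.2 and 34.0% in CGRP-treated ones. *Nr4a2* took 32.2, 37.3 and 27.4% with PBS and 51.9, 56.7 and 57.4% with CGRP. In neutrophils *Nr4a1* thus led in each PBS library and *Nr4a2* in each CGRP library. The mean *Nr4a2* share was 32.3 ± 4.98% with PBS and 55.4 ± 2.99% with CGRP (SD, n = 3, exact two-sided permutation p = 0.1, the smallest possible).

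In macrophages the *Nr4a2* share was 9.76, 14.6 and 22.0% with PBS and 59.0, 65.7 and 61.5% with CGRP. Each PBS share rests on 41 to 50 counts of the family, so that the 95% Clopper-Pearson interval of the lowest ran from 2.72 to 23.1% and that of the highest from 11.5 to 36.0%, which cover counting error only. The CGRP shares rest on 122 to 222 counts, and the lowest had an interval of 52.2 to 65.5%. The mean *Nr4a2* share changed from 15.5 ± 6.17 to 62.1 ± 3.40% and the mean *Nr4a1* share from 78.4 ± 11.2 to 34.2 ± 1.01% (SD, n = 3, exact two-sided permutation p = 0.1 for each, the smallest possible). The *Nr4a3* share was 6.11 ± 5.36% with PBS and 3.69 ± 2.39% with CGRP in macrophages (exact two-sided permutation p = 0.5), and 1.53 ± 2.65 and 6.60 ± 1.74% in neutrophils (exact two-sided permutation p = 0.1). The summed level of the family was 26.8 ± 3.62 and 42.9 ± 2.59 CPM in PBS-treated and CGRP-treated neutrophils, and 14.7 ± 3.11 and 65.4 ± 4.08 CPM in macrophages (SD, n = 3). Per kb of exonic sequence, the mean levels with PBS were 5.08 CPM for *Nr4a1* and 2.10 CPM for *Nr4a2* in neutrophils, and 3.21 and 0.589 CPM in macrophages. With CGRP the order was the opposite, at 4.65 and 5.85 CPM per kb in neutrophils and 6.38 and 9.99 CPM per kb in macrophages, and *Nr4a3* stayed below 0.5 CPM per kb in each group. Reads primed at the poly-A tail do not grow in number with transcript length, and in CPM the order of the members was the same.

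**Figure D4:**
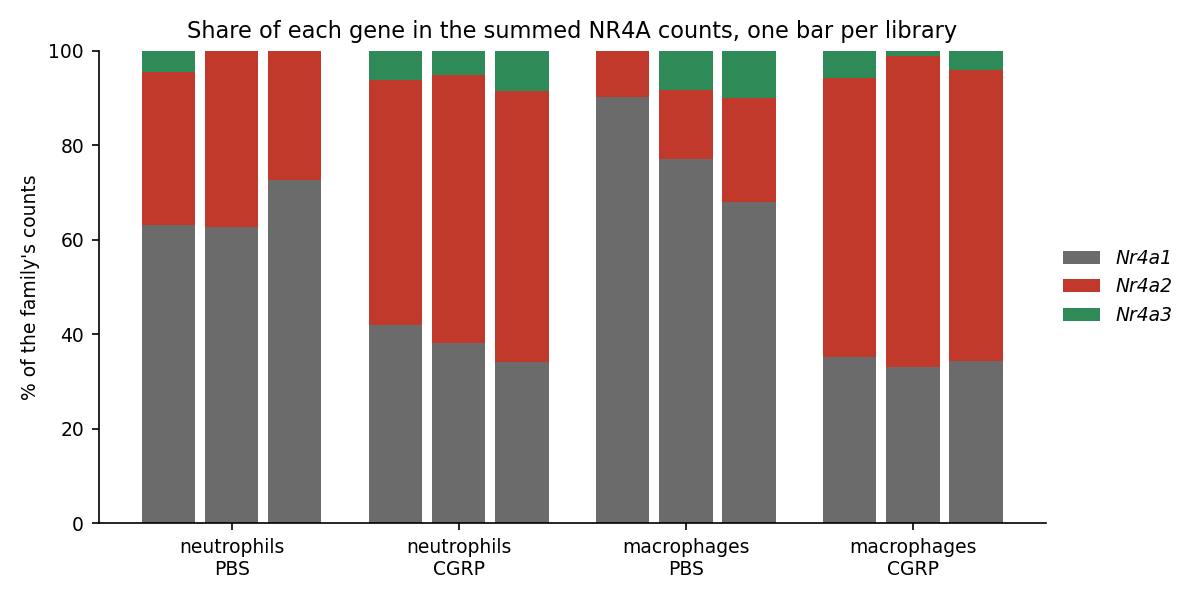
Share of *Nr4a1*, *Nr4a2* and *Nr4a3* in the summed counts of the NR4A family, in percent, with 1 bar per library and 3 libraries per group. *Nr4a1* holds more than 60% in every PBS library, and *Nr4a2* more than 50% in every CGRP library.

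Genes around the family were read from lists by role. Of 6 CREB and CRTC activators, which carry the cAMP signal to promoters of immediate-early genes, none passed in neutrophils with limma-voom, edgeR or DESeq2 (all 6 tested in limma-voom, median log2 fold change −0.02, and 1 without an adjusted p in DESeq2), and 1, *Crem*, had an unadjusted p under 0.05. In macrophages 2 were higher and none lower (all 6 tested, median 0.49, against 0.0047 over all genes). Over all genes tested, 2.53% passed in neutrophils, and 3.46% were higher and 3.97% lower in macrophages. They were *Crem*, whose cAMP-inducible form ICER represses CRE-driven genes, from 13.7 ± 1.33 to 177.9 ± 12.6 CPM (log2 fold change 3.68, SE 0.19, limma-voom adjusted p = 5.4e-09), and the coactivator *Crtc3*, from 13.6 ± 6.79 to 41.2 ± 15.4 CPM (1.64, SE 0.34, adjusted p = 0.00543).

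Among 37 cAMP and CREB target genes, a list that holds *Crem* as well but no NR4A gene, 25 were tested in neutrophils. Of these, 5 were higher and none lower, and their log2 fold changes had a median of 0.25 against 0.0008 over all genes, of which 1.51% were higher and 1.02% lower. The AP-1 gene *Fos* rose by 1.30 (SE 0.13, limma-voom adjusted p = 1.69e-06), next to *Pde4b*, a phosphodiesterase that degrades cAMP, by 0.60 and the transcription factor *Cebpb* by 0.59. *Dusp1*, a MAP kinase phosphatase, and the AP-1 gene *Junb* rose by 0.41 and 0.35 (limma-voom adjusted p = 0.0249 and 0.039), and both calls were lost in 8 of 16 alternatives, as were those of *Cebpb* in 2 and *Pde4b* in 1. Among the cAMP genes that passed in neutrophils none rose on the log2 scale as much as *Nr4a2*, and *Fos* came nearest, from 52.7 ± 6.58 to 127.8 ± 18.2 CPM (SD, n = 3). The difference between these 2 genes was not tested. Over 10 alternatives that kept all libraries, their ranges crossed, at 1.32 to 1.525 for *Nr4a2* and 1.28 to 1.42 for *Fos*.

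In macrophages 22 of the 37 were tested, 13 were higher and 3 lower, with a median of 0.89, where 3.46% of all genes tested were higher and 3.97% lower. The largest rises were those of *Crem*, of *Pde4b* (3.46, from 12.2 ± 0.461 to 134.2 ± 3.66 CPM) and of *Pde3b*, another phosphodiesterase (3.09), all below the 4.22 of *Nr4a2*. Next came the transcription factors *Nfil3* (2.03) and *Fosl2* (1.81), the early response genes *Ier3* (1.39) and *Btg2* (1.34), *Cebpb* (1.20) and *Junb* (1.08), at about the size of *Nr4a1*. *Rgs2*, a regulator of G protein signalling, rose by 0.85, *Fos* by 0.77, the kinase *Sgk1* by 0.74 and *Ier2* by 0.73, and the calls of *Ier2* and *Sgk1* were lost in 5 and 1 of 16 alternatives. The 3 that fell are also transcriptional regulators: *Egr2*, from 81.0 ± 2.11 to 14.4 ± 2.15 CPM (log2 fold change −2.46), *Atf3*, from 249.6 ± 32.4 to 54.7 ± 10.3 CPM (−2.17), and *Id2* (−0.81). The limma-voom adjusted p of these 16 genes lay between 5.4e-09 and 0.0224. The early genes of the list thus moved in both directions in macrophages, while both tested NR4A genes rose.

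**Figure D5:**
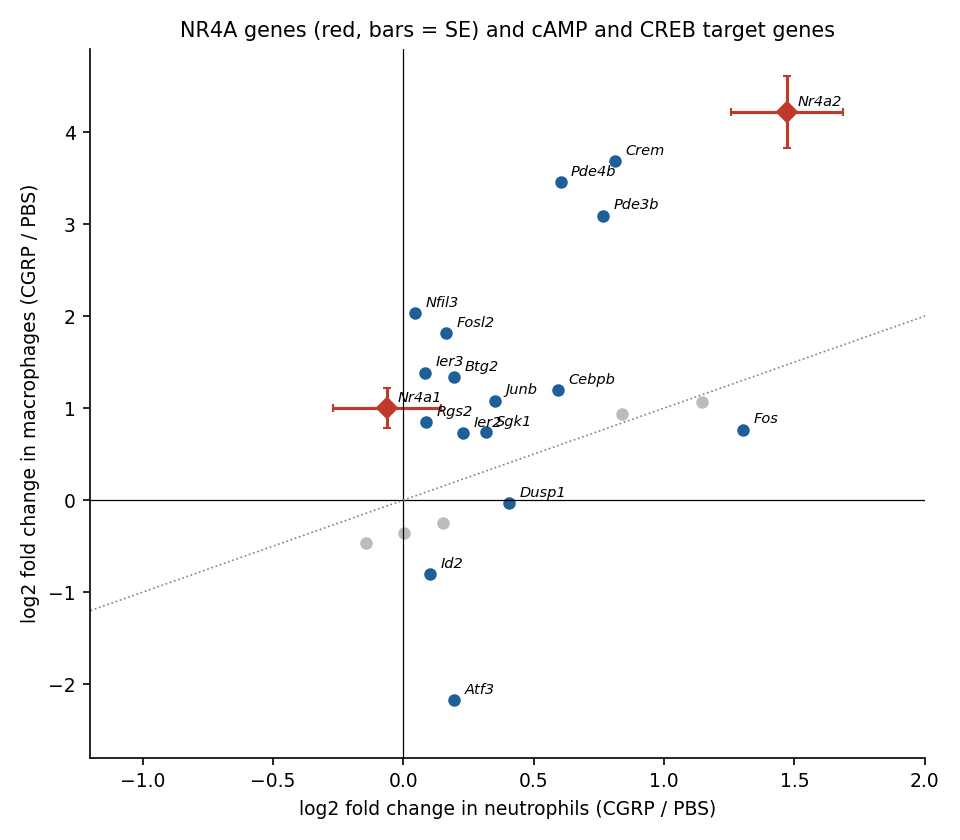
log2 fold change with CGRP in neutrophils (horizontal axis) and macrophages (vertical axis) of the NR4A genes (red diamonds, bars are SE) and of the cAMP and CREB target genes tested in both cell types (circles, blue and named where the adjusted p is under 0.05 in either, grey otherwise). The dotted line marks equal values, and *Nr4a2* lies farthest from the origin, at 1.47 and 4.22.

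Of 17 dimer partners and co-regulators through which NR4A proteins act, 16 were tested in each cell type, and the one left out, *Rxrg*, had at most 2 counts in any library. None passed in neutrophils with limma-voom, edgeR or DESeq2 (median −0.03), and 3 had an unadjusted p under 0.05 in limma-voom. In macrophages none was higher and 1 was lower, the coactivator *Ncoa3* (46.7 ± 6.68 to 30.0 ± 4.97 CPM, log2 fold change −0.65, SE 0.19, limma-voom adjusted p = 0.049), a call lost in 10 of 16 alternatives. Among all genes tested, 2.53% passed in neutrophils and 7.43% in macrophages, so that the counts of genes that passed are near the background. The RXR partner genes *Rxra* and *Rxrb* had log2 fold changes of 0.63 and 0.19 in neutrophils and 0.14 and 0.07 in macrophages, and none passed.

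Of 28 genes described as direct NR4A targets, mostly in endocrine, neuronal, muscle and T cells, 9 could be tested in neutrophils and 6 in macrophages. None passed in either cell type with limma-voom, edgeR or DESeq2 (medians 0.20 and −0.23), and 3 genes in neutrophils and 0 in macrophages had an unadjusted p under 0.05. The share of all genes under that unadjusted threshold is not given for any list, so that the unadjusted counts have no background here. With 2.53% and 7.43% of all genes called in the respective cell types, counts of 0 among so few genes are near the background. *Bcl2*, a survival gene, had 7.47 ± 0.372 and 3.24 ± 0.634 CPM in PBS-treated and CGRP-treated neutrophils (log2 fold change −1.14, adjusted p = 0.0835) and a log2 fold change of −1.01 in macrophages (adjusted p = 0.334). *Havcr2*, which encodes the inhibitory receptor TIM-3, had log2 fold changes of 0.82 and 0.57 (limma-voom adjusted p = 0.178 and 0.379). *Spp1*, the other gene with an unadjusted p under 0.05 in neutrophils, had opposite signs in the cell types. Its log2 fold change was 0.35 in neutrophils and −0.25 in macrophages (limma-voom adjusted p = 0.164 and 0.329). The dopaminergic genes *Th* and *Slc6a3*, classical targets of *Nr4a2*, were at 0 counts in all 12 libraries.

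Patrolling monocyte genes, the programme for which *Nr4a1* is known, held genes that rose and genes that fell. In macrophages 4 of 17 tested genes were higher and 2 lower (median −0.05), where 3.46% of all genes tested were higher and 3.97% lower. Beside *Nr4a1* itself and *Cebpb*, the Fc receptor gene *Fcgr4* rose by 0.57 and *Cd274*, which encodes PD-L1, by 0.97, whereas the fractalkine receptor gene *Cx3cr1* fell by 1.36 and *Pparg*, a lipid-sensing nuclear receptor, fell by 1.76 on the log2 scale (limma-voom adjusted p between 1.72e-05 and 0.0281). The call of *Cd274* was lost in 6 of 16 alternatives and that of *Fcgr4* in 2. In neutrophils 1 of 15 tested genes was higher, *Cebpb*, and none lower, where 1.51% of all genes tested were higher and 1.02% lower. Of 11 inflammatory Ly6C-high monocyte genes, only the chemokine receptor gene *Ccr2* passed. It was lower in neutrophils (log2 fold change −0.49, limma-voom adjusted p = 0.00134) and in macrophages (−0.81, limma-voom adjusted p = 0.00048), where 1.02% and 3.97% of all genes tested were lower. The median log2 fold change of the 11 was −0.17 in neutrophils and 0.34 in macrophages, so that in macrophages *Ccr2* went against the median of its list.

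The genes whose pattern was most like that of a member were taken as the 5 with the highest Pearson correlation of log2 CPM over the 12 libraries, among 10694 genes, as a description of points that share cell type, treatment and depth. For *Nr4a2* they were *Thbs1*, which encodes thrombospondin-1 (r = 0.966), *Neurl3*, a ubiquitin ligase gene (0.963), *Pde4b* (0.962), *Cyth1*, which encodes a guanine nucleotide exchange factor (0.957), and the transcription factor *Ets2* (0.953). *Thbs1* had means of 110.8, 583.2, 50.4 and 1571 CPM in PBS-treated and CGRP-treated neutrophils and in PBS-treated and CGRP-treated macrophages, the same order of groups as *Nr4a2*. For *Nr4a1* they were the kinase gene *Nuak2* (r = 0.887), *Csf2rb*, the shared receptor subunit for GM-CSF, IL-3 and IL-5 (0.877), *Pde4b* (0.876), the interferon-γ receptor gene *Ifngr1* (0.871) and *Wdr33*, a gene of mRNA 3′ end processing (0.867). *Csf2rb*, like *Nr4a1*, was lowest in PBS-treated macrophages (109.9 CPM) and highest in CGRP-treated ones (379.9 CPM), with 192.5 and 209.0 CPM in PBS-treated and CGRP-treated neutrophils. *Nr4a3* was too low to be given such genes.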

How the data were processed

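The 3 NR4A genes were measured in the 12 libraries as raw counts, which the authors made with nfCore/RNAseq (duplicates collapsed by molecular identifier), STAR alignment to GRCm38 and featureCounts, and deposited without normalization in 1 table per cell type. The annotation release and strand setting are not given in the sources used here. Genes were kept with edgeR's filterByExpr, scaled by TMM and tested with limma-voom (two-sided, Benjamini-Hochberg adjustment over all genes tested, threshold 0.05), in 6 libraries per cell type and in 12 for comparisons between cell types. Steps were tested on simulated data. The software was R 4.3.3, limma 3.58.1, edgeR 4.0.16, DESeq2 1.42.0, Python 3.11.15 and matplotlib 3.10.9.

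Members and gene lists were chosen with earlier results of these data known. Named genes are the members, list genes with an adjusted p under 0.05 in either cell type, the 5 most correlated genes per tested member and the most abundant gene of each marker list. Some list genes without a call (*Bcl2*, *Havcr2*, *Spp1*, *Rxra*, *Rxrb*), genes at 0 and *Rxrg* were named after their values were seen. Alternatives tried were DESeq2 and its size factors, edgeR's quasi-likelihood test, library totals, other filters on low counts, quality weights, a replicate block, thinned counts, a fold change over 1.5, a single fit and leaving out each library. Proteins were not used here, and the level of 1 marker gene is not reported here.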

Additional observations from a re-analysis of the deposited data

Results flagged for a closer look

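A set of 34 tested genes was read for a difference of the CGRP effect between macrophages and neutrophils. It holds the members, the list genes with a call in either cell type and the genes most correlated with a member. The top genes of the marker lists and the list genes named without a call were not counted. By the interaction term of limma-voom with an adjusted p under 0.05, 21 of the 34 differed, where 2.36% of all 10694 genes passed. Values below are the macrophage effect minus the neutrophil effect on the log2 scale. Most list genes were named because they passed in 1 of the cell types, which favours such a difference, so that the 2 shares cannot be compared. Among the NR4A genes this was *Nr4a2* (2.75, adjusted p = 0.000374). Of the cAMP and CREB genes, *Crem* (2.88), *Pde4b* (2.86), *Pde3b* (2.33), *Nfil3* (1.997), *Fosl2* (1.66), *Ier3* (1.31), *Btg2* (1.16), *Rgs2* (0.77) and *Junb* (0.74) had the larger value in macrophages. The difference was negative for *Atf3* (−2.35), *Egr2* (−2.11), *Id2* (−0.90) and the monocyte gene *Cx3cr1* (−0.96), which fell in macrophages and did not pass the test in neutrophils, where *Egr2* was too low to be tested (at most 12 counts in a library). *Egr2* entered the fit over 12 libraries through the macrophages, and its difference rests on those few neutrophil counts. Of the genes most like a member, the differences were *Thbs1* (2.64), *Nuak2* (1.71), *Csf2rb* (1.69), *Cyth1* (1.35), *Ets2* (1.10), *Ifngr1* (0.90) and *Neurl3* (0.68, adjusted p = 0.049). Of 20 alternatives, the call was lost in 16 for *Neurl3*, 6 for *Junb*, 4 for *Egr2*, 3 for *Ets2* and 1 each for *Rgs2* and *Cx3cr1*. *Thbs1*, *Nuak2*, *Csf2rb*, *Cyth1*, *Ets2*, *Ifngr1* and *Neurl3* were chosen by their correlation with *Nr4a1* or *Nr4a2* over the same libraries, so that their differences are not independent of those of the receptors.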

How the results depend on the processing

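No value turned its direction past the threshold under any alternative. *Nr4a2* passed in all 16 alternatives in neutrophils (1.32 to 1.55, with 1.39 to 1.55 when a library was left out) and in all 16 in macrophages (3.79 to 4.60), as did its difference between the cell types in all 20 (2.29 to 3.14). *Nr4a1* in macrophages passed in 15 of 16, with 0.93 to 1.06 when a library was left out and 0.96 without the first PBS library (adjusted p = 0.0669). Its difference between the cell types missed the threshold in 17 of 20 alternatives (adjusted p up to 0.171) and passed with edgeR's quasi-likelihood test (1.11, adjusted p = 0.0419), with quality weights (1.06, adjusted p = 0.0295) and without the second neutrophil PBS library (1.23, adjusted p = 0.0403), in a range of 0.91 to 1.23 with a library left out. Its difference between PBS-treated cell types ran from −0.79 to −0.49 with a library left out. For *Nr4a3* in neutrophils without a filter, the range was 2.51 to 4.12. The *Nr4a2* share in neutrophils changed by 18.6 percentage points with thinned counts in place of 23.1. The causes were not tested.

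In neutrophils the 248 calls became 137 in a single fit over 12 libraries, 151 with a fold change over 1.5, and 138 to 234 with a library left out. In macrophages the 698 became 1406 with quality weights, 1050 in the single fit, and 347 to 765 with a library left out. The 252 differences between cell types became 520 with quality weights and 149 to 328 with a library left out. Libraries with the same replicate number had correlated deviations of 0.042, −0.013 and 0.137 in neutrophils and 0.059, −0.179 and 0.273 in macrophages, not over 0.1 in every pair, and libraries numbered 1 and 3, but not those numbered 2, were closest to their own number. Whether the numbers mark pairs is not given, so the block was kept as an alternative. With this block on the replicate number, 266, 915 and 295 calls were made, *Nr4a2* was 1.48 in neutrophils and 4.09 in macrophages and *Nr4a1* 1.00 in macrophages. Among the 34 genes read for a difference between cell types, without the NR4A members, 94 values lost and 35 gained a call, and 2781 did neither. The top genes of the marker lists and the list genes named without a call are not part of this tally. At 2002559 to 3631989 counts per library, *Nr4a3* and *Nr4a2* in PBS-treated macrophages are limited by counting.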

Other observations

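Short CRE motifs were also counted in the RefSeq promoter windows of all tested genes, of which 7373 had a matched window in macrophages and 7596 in neutrophils. A gene with several windows was given the highest count among them. The shares of genes here are therefore not on the same basis as the shares of windows given with the promoters. In macrophages 49 tested genes (0.665%) had at least 4 motifs, of which 5 were higher with CGRP by limma-voom (*Ing3*, *Ip6k1*, *Nr4a1*, *Nr4a2* and *Trp53inp2*) and 1 was lower. That is 10.2% higher, against 3.26% of all genes with a window, and 2 of the 5 are the NR4A genes with which the count began. With at least 3 motifs it was 7 of 217 genes (3.23%). In neutrophils, *Nr4a2* was the 1 gene that was higher among 51 with at least 4 motifs (1.96%, against 1.54% of all), and with at least 3 motifs it was 7 of 228 (3.07%). No test was made of these shares.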
